A study of Mus musculus with 48 samples.

Results

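The 6 genes described here belong to the stress hormone axis and are 6 of the 18193 genes with a probe set of their own on the array, followed in the hippocampus (HPC) after repeated ethanol exposure. They were Nr3c1, Nr3c2, Hsd11b1, Crh, Crhr1 and Crhbp. Their 12 probe sets (of 45037 in all) were those whose only annotated gene symbol was one of the 6, and each gene was read from the probe set with the highest mean over the 48 arrays. Nr3c1 had 6 probe sets, Crhr1 had 2 and the other genes had 1 each, and the further probe sets served as a check.

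The tissue came from 48 adult male C57BL/6J mice, an inbred strain. Each mouse had its own Affymetrix expression array, and the 8 groups held 6 mice each. The 24 chronic intermittent ethanol (CIE) mice went through 4 cycles, each with ethanol vapor at 10 to 13 mg/l for 16 h on each of 4 days and then 7 days of abstinence. They were injected with ethanol (1.6 g/kg) and pyrazole (1 mmol/kg), an inhibitor of alcohol dehydrogenase, at the start of a cycle. The 24 Ctrl mice breathed air and were injected with saline and the same pyrazole, so that pyrazole was common to both treatments. HPC was collected at 0 h, 8 h and 72 h and at 7 d, counted from the last session, and each time point had its own 6 CIE and 6 Ctrl mice. Levels are log2 values from robust multi-array average (RMA), so a difference of 1 is a doubling. A difference was called where limma's adjusted p, a false discovery rate (FDR) over all probe sets, was at most 0.01, and every adjusted p below comes from that fit unless another test is named. In whole tissue, fewer cells of a type and less RNA per cell cannot be told apart.

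Corticosterone, the mouse glucocorticoid, acts in the hippocampus through a high-affinity receptor encoded by Nr3c2 and a lower-affinity receptor encoded by Nr3c1, and hormone-bound receptors bind DNA and change transcription. The enzyme encoded by Hsd11b1 regenerates active corticosterone inside cells. Corticotropin-releasing hormone (Crh) starts the hypothalamic branch of the axis and is also made by some hippocampal interneurons, where it acts on the receptor Crhr1 and is sequestered by the binding protein Crhbp.

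The arrays had near-equal medians (6.601 to 6.627), and pairs of arrays correlated at 0.974 to 0.998 over probe sets. The hybridization batch was not in the labels, and 6 sets of arrays joined by exactly equal values, each with 1 mouse of nearly every group, stand in for it below and are called hybridization sets. Ctrl mice 18 and 22 of the 7 d group stood apart from the rest. The mean over 10 of 10 markers of hippocampal principal cells was 9.08 and 9.12 in these mice, against 9.95 to 10.74 in the other 46. The mean over 5 measured of 7 striatal markers was 9.52 and 9.85, against 7.67 to 8.78. Dsp, a marker of dentate granule cells, was 6.22 and 6.01, against 7.79 to 12.34, and Drd1, a dopamine receptor of striatal neurons, was 10.18 and 10.49, against 6.74 to 9.27. The CIE minus Ctrl differences of the 6 genes at 7 d are therefore also given without both mice. In the whole table the number of probe sets called at 7 d was 604 with them and 11 without them.

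The first question was whether the 6 genes differed between CIE and Ctrl mice at any time. None of the 24 differences was called, and 5 had an unadjusted p under 0.05, 1 at 8 h and 4 at 7 d. Over all probe sets, the share called was 1.92% at 0 h and 2.15% at 8 h, then 0.00666% at 72 h and 1.34% at 7 d, so that 0 of 6 genes at each time is not far from these shares. The differences ran between -0.18 and 0.66 on the log2 scale. At 7 d all 6 genes lay above 0 with a median of 0.36. The median there was 0.01 over all probe sets and 0.028 over 1 probe set for each of 18193 genes. Without Ctrl mice 18 and 22, 5 lay above 0 and 1 (Hsd11b1) below, with a median of 0.16. At 0 h, 8 h and 72 h the gene medians were 0.01, 0.07 and 0.05. A moderated F over the 4 time points, which called 7.67% of all probe sets, called none of the 6 genes, with adjusted p between 0.144 (Nr3c2) and 0.706 (Crhbp).

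**Figure D1:**
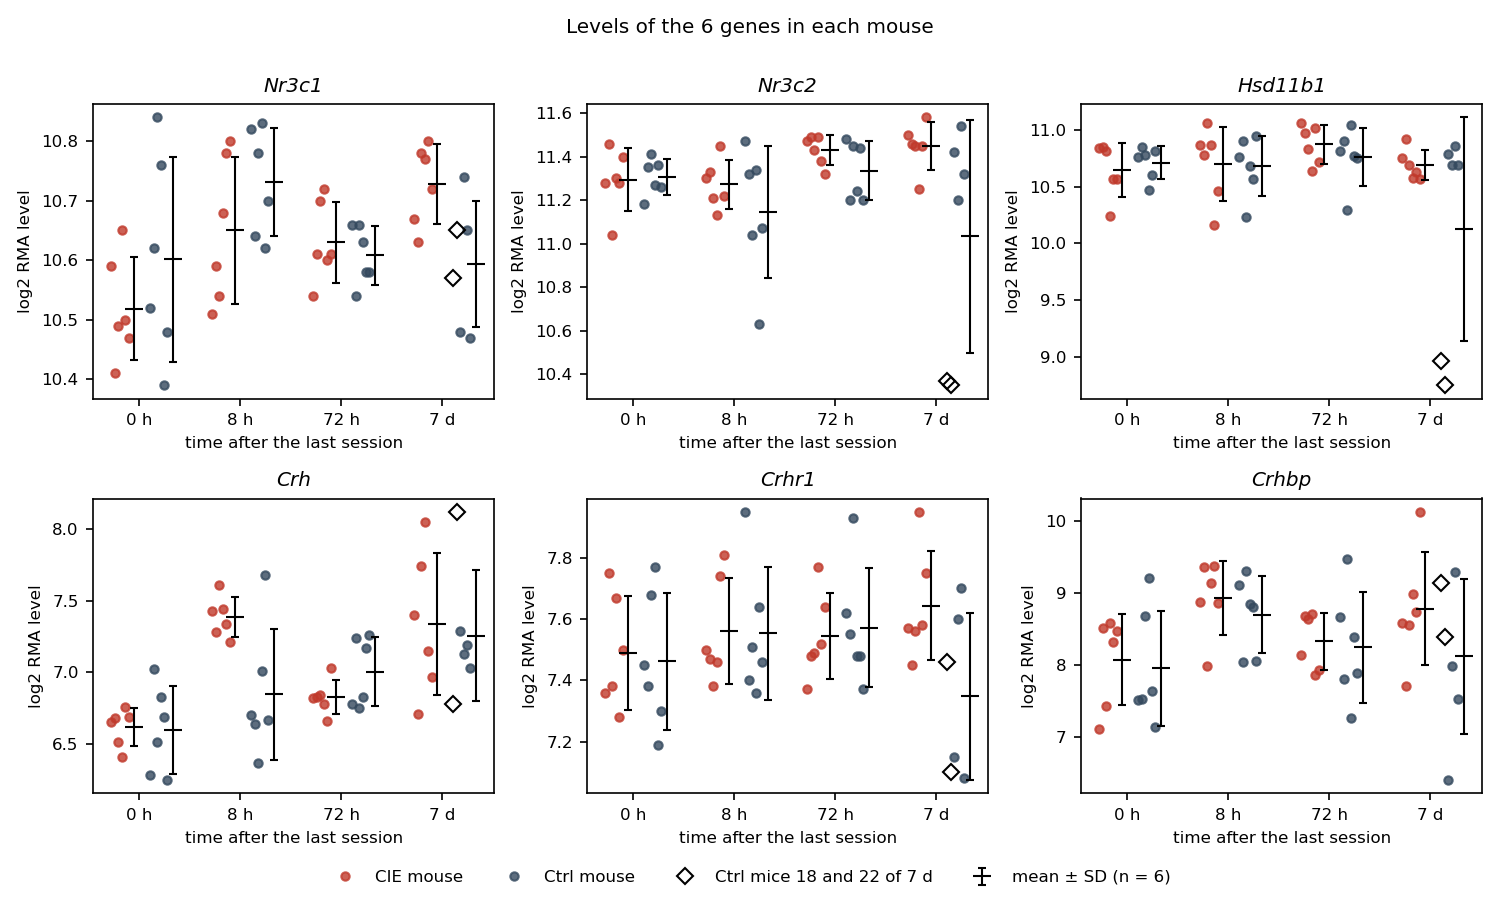
Log2 RMA level of each gene (vertical axis) in each mouse by time after the last session (horizontal axis), CIE mice in red left of Ctrl mice in blue, with the mean ± SD of 6 mice beside each group. Crh was above every CIE mouse of 0 h in all CIE mice of 8 h, and the open diamonds, Ctrl mice 18 and 22 of 7 d, lie lowest for Hsd11b1 and Nr3c2.

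Nr3c1, the glucocorticoid receptor gene, varied least of the 6 genes, with a range of 0.45 over all 48 mice and an SD within groups of 0.10. At 0 h it was 10.41, 10.49 and 10.65 in CIE mice (lowest, median and highest) and 10.39, 10.57 and 10.84 in Ctrl mice. At 7 d it was 10.63, 10.74 and 10.80 in CIE mice and 10.47, 10.61 and 10.74 in Ctrl mice. The groups overlapped at both times, with CIE mice to the low side at 0 h and to the high side at 7 d. The difference was -0.08 at 0 h (SE 0.06, adjusted p = 0.486) and -0.08 at 8 h (0.511), then 0.02 at 72 h (0.961) and 0.13 at 7 d (95% interval 0.01 to 0.26, adjusted p = 0.189, and 0.14 without Ctrl mice 18 and 22, adjusted p = 0.315).

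The other probe sets of Nr3c1 did not move together, and 2 of them were called at 1 time each. Probe set 1421867_at rose at 7 d. It was 10.19, 10.28 and 10.32 in CIE mice and 9.87, 10.02 and 10.18 in Ctrl mice, so the groups did not overlap, as was true of 1.64% of all probe sets at that time. The rise was 0.25 or 1.19-fold (SE 0.05, adjusted p = 0.00223), was seen in 6 of 6 hybridization sets, and was 0.30 without Ctrl mice 18 and 22 (adjusted p = 0.0052). With only the 12 arrays of 7 d in the fit it was 0.25 and no longer called (adjusted p = 0.0451). An exact permutation test of this probe set over all arrangements of the 12 mice gave p = 0.00216, the smallest it can give. Groups without overlap always give this p, and 6 of 6 sets as well, so neither adds to the gap itself. The permutation test was run only on probe sets that limma had called. At 0 h, 8 h and 72 h the differences of 1421867_at were 0.08, 0.09 and 0.10 and were not called. Its CIE effect at 7 d differed from that at 0 h by 0.17, which was not called either (adjusted p = 0.361).

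Probe set 1457635_s_at, whose ending marks probes that match more than 1 transcript, fell at 8 h. It was 8.60, 8.75 and 9.02 in CIE mice and 8.94, 9.09 and 9.29 in Ctrl mice, so the groups overlapped. The difference was -0.32 or 0.80-fold (SE 0.08, adjusted p = 0.00913, exact permutation p = 0.00649), and CIE was the higher group in 0 of 6 hybridization sets. The call was close to the threshold: it was lost when any 1 of 25 mice was left out. With all mice kept, it was also lost with the sets as a block (adjusted p = 0.0163) and with each array centred on its median (0.0102). The same held with only the 12 arrays of 8 h (0.0436). At 0 h, 72 h and 7 d the difference was -0.27 (adjusted p = 0.0318), -0.05 and 0.03. Of the remaining Nr3c1 probe sets, 1453860_s_at had -0.72 at 0 h (adjusted p = 0.0204), while 1421866_at and 1431378_at lay between -0.27 and 0.18 over the 4 times.

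**Figure D2:**
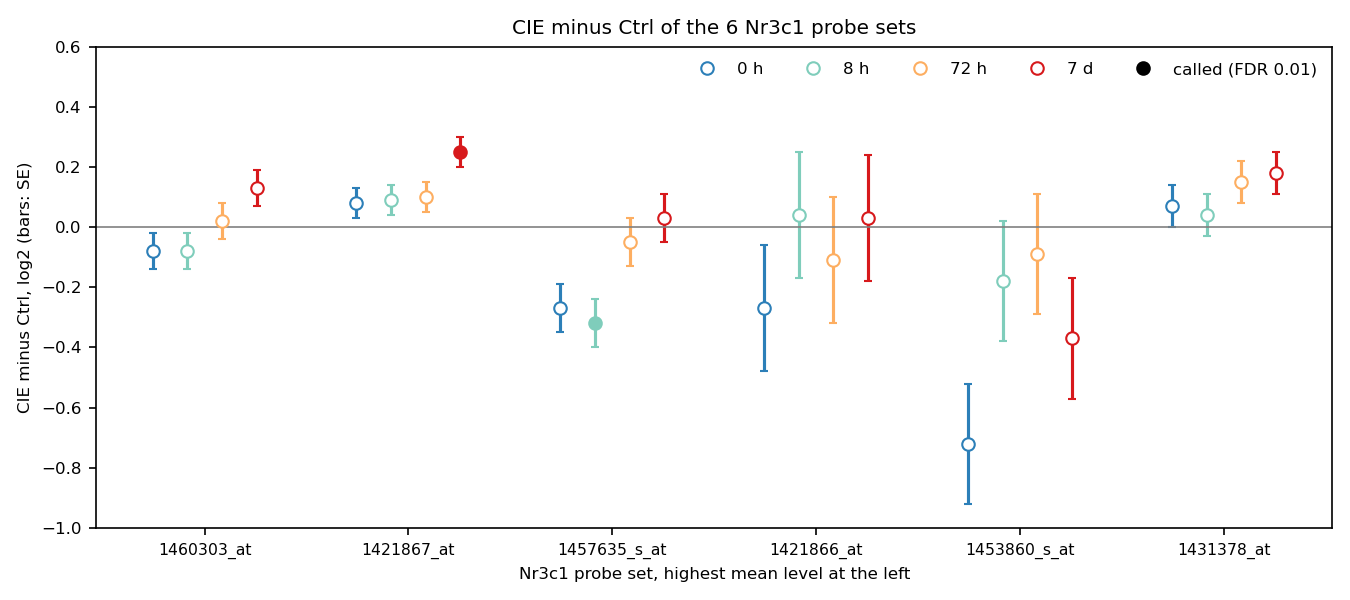
CIE minus Ctrl difference in log2 level (vertical axis, bars are SE) for each of the 6 Nr3c1 probe sets (horizontal axis) at 0 h, 8 h, 72 h and 7 d from left to right, with called differences filled. The 2 filled points are 1421867_at at 7 d (0.25) and 1457635_s_at at 8 h (-0.32), in opposite directions.

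Nr3c1 probe sets also differed in how they varied from mouse to mouse. Over the 48 arrays the main probe set correlated with 1421867_at at 0.55 and with 1457635_s_at at 0.57, while those 2 correlated with each other at -0.05. Its correlation was 0.09 with 1421866_at, 0.00 with 1453860_s_at and 0.21 with 1431378_at. These points share groups and arrays, and the probe sets read different stretches of transcript, whose positions were not analysed here.

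Nr3c2, the mineralocorticoid receptor gene, had group means between 11.03 and 11.45, with the lowest single values in a few Ctrl mice. At 0 h it was 11.04, 11.29 and 11.46 in CIE mice and 11.18, 11.31 and 11.41 in Ctrl mice, a difference of -0.01 (SE 0.13, adjusted p = 0.977). At 7 d it was 11.25, 11.46 and 11.58 in CIE mice and 10.35, 11.26 and 11.54 in Ctrl mice. The overlap at 7 d was wide, and the lowest Ctrl values were those of mice 22 (10.35) and 18 (10.37), below the 11.20 to 11.54 of the other 4. The 7 d difference was 0.42 or 1.33-fold (95% interval 0.15 to 0.68, adjusted p = 0.0524), and 0.08 without mice 18 and 22 (adjusted p = 0.758). It was called only when Ctrl mouse 70 was left out (0.52, adjusted p = 0.0097). At 8 h and 72 h the differences were 0.13 (adjusted p = 0.681) and 0.10 (0.895), and Ctrl mouse 66 of 8 h, at 10.63, lay below the 11.04 to 11.47 of its group.

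Hsd11b1, the reductase that regenerates corticosterone, showed the same pair of Ctrl mice at the bottom of its range. It was 10.57, 10.66 and 10.92 in CIE mice at 7 d and 8.75, 10.69 and 10.86 in Ctrl mice. Mice 18 and 22 had 8.96 and 8.75, and the other 4 Ctrl mice had 10.69 to 10.86, inside the range of the CIE mice. The difference was 0.57 (95% interval 0.11 to 1.03, adjusted p = 0.129), CIE was the higher group in only 2 of 6 hybridization sets, and without both mice the difference was -0.06 (adjusted p = 0.876). At 0 h, 8 h and 72 h it was -0.07 (SE 0.23, adjusted p = 0.915), 0.02 (0.979) and 0.12 (0.935). The levels of 0 h were 10.24, 10.69 and 10.85 in CIE mice and 10.47, 10.77 and 10.85 in Ctrl mice, which overlapped throughout.

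Crh, the releasing hormone itself, had the largest CIE minus Ctrl difference of the 6 genes at 8 h. At 8 h it was 7.21, 7.38 and 7.61 in CIE mice and 6.37, 6.68 and 7.68 in Ctrl mice. All 6 CIE mice lay above 5 of the Ctrl mice, and Ctrl mouse 66 (7.68) lay above every CIE mouse. The difference was 0.54 or 1.45-fold (SE 0.18, 95% interval 0.17 to 0.91), it was positive in 5 of 6 hybridization sets, and it was not called (adjusted p = 0.0777, and 0.0121 without mouse 66). At 0 h Crh was 6.41, 6.67 and 6.76 in CIE mice and 6.25, 6.60 and 7.02 in Ctrl mice, a difference of 0.02 (adjusted p = 0.969). At 72 h it was 6.66, 6.83 and 7.03 in CIE mice and 6.75, 7.00 and 7.26 in Ctrl mice, a difference of -0.18 (0.836). At 7 d it was 6.71, 7.28 and 8.05 in CIE mice and 6.78, 7.16 and 8.12 in Ctrl mice, a difference of 0.08 (0.875), and 0.18 without Ctrl mice 18 and 22 (adjusted p = 0.707). The highest mice of 7 d were CIE mouse 37 at 8.05 and Ctrl mouse 22 at 8.12.

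The second question was how each gene moved with time within a treatment, where the 3 later groups were compared with the same 0 h mice. In CIE mice, Crh at 8 h was the 1 call among 18 comparisons. All 6 CIE mice of 8 h (7.21 to 7.61) lay above all 6 CIE mice of 0 h (6.41 to 6.76). Such a gap was found for 4.52% of all probe sets in this comparison, and 2.86% were called. Crh rose by 0.77 or 1.70-fold (SE 0.18, 95% interval 0.39 to 1.14, adjusted p = 0.0065). Its rise in 6 of 6 hybridization sets follows from the lack of overlap and is no further support. The call was lost with the sets as a block (0.77, adjusted p = 0.0143) and without CIE mouse 11, 19, 43, 57 or 72 of 0 h or CIE mouse 15, 21, 23, 25 or 41 of 8 h, with a rise of 0.72 to 0.80 and an adjusted p of at most 0.0181 in every such fit.

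Crh in CIE mice at 7 d was 0.72 above CIE mice of 0 h or 1.64-fold (SE 0.18, adjusted p = 0.0256, 6 of 6 hybridization sets), short of the threshold. It passed without Ctrl mice 18 and 22 (adjusted p = 0.00897), with array weights (0.00587) and without CIE mouse 9 (0.00731). At 72 h the difference was 0.21 (0.64). Of all probe sets, 1.13% were called at 72 h and 0.793% at 7 d against 0 h. Crh in Ctrl mice was 0.25 (adjusted p = 0.491), 0.41 (0.211) and 0.66 (SE 0.18, 95% interval 0.29 to 1.03, adjusted p = 0.078) above Ctrl mice of 0 h at 8 h, 72 h and 7 d. None of the 18 comparisons of Ctrl mice was called, where 1.12%, 0.833% and 0.211% of all probe sets were called at the 3 times. Of the 18, 5 had an unadjusted p under 0.05, as did 8746, 8497 and 5387 of 45037 probe sets at the 3 times.

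None of the other 5 genes was called over time in its main probe set. Crhbp in CIE mice was 0.86 higher at 8 h than at 0 h (SE 0.40, adjusted p = 0.193) and higher in 6 of 6 hybridization sets, and in Ctrl mice the same difference was 0.74 (adjusted p = 0.303). The CIE shift of Crhbp was larger than that of Crh (0.77), with a larger SE (0.40, against 0.18 for Crh). Nr3c1 in CIE mice was 0.21 higher at 7 d than at 0 h (adjusted p = 0.0663, 6 of 6 sets). Its further probe set 1421867_at was 0.21 higher in CIE mice at 8 h than at 0 h, which was called (adjusted p = 0.00378). That call was lost with the sets as a block (0.0107) and without CIE mouse 11, 43, 41 or 69 (adjusted p of 0.0103 to 0.0188). The same probe set in Ctrl mice was 0.20 higher at 8 h than at 0 h (adjusted p = 0.0104). Hsd11b1 and Nr3c2 in Ctrl mice differed by -0.59 (adjusted p = 0.249) and -0.27 (0.407) between 7 d and 0 h. Without mice 18 and 22 both signs turned, with differences of 0.04 (adjusted p = 0.947) for Hsd11b1 and 0.06 (0.879) for Nr3c2.

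Crhr1, the receptor through which Crh acts in the hippocampus, had group means between 7.35 and 7.64, the lowest in Ctrl mice of 7 d. At 7 d it was 7.45, 7.57 and 7.95 in CIE mice and 7.08, 7.30 and 7.70 in Ctrl mice, with overlap between the groups. The difference was 0.29 (95% interval 0.07 to 0.52, adjusted p = 0.115), and 0.26 without mice 18 and 22 (adjusted p = 0.319), which had 7.46 and 7.10. At 0 h, 8 h and 72 h the difference was 0.03 (SE 0.11, adjusted p = 0.934), 0.01 (0.985) and -0.03 (0.97). The groups of 8 h, 7.38, 7.49 and 7.81 in CIE mice and 7.36, 7.49 and 7.95 in Ctrl mice, were nearly the same. Its further probe set, 1427782_a_at, had differences of -0.08, 0.23 (adjusted p = 0.141), 0.09 and 0.07, and correlated with the main one at 0.37 over the 48 arrays.

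Crhbp, whose product binds and sequesters Crh, was by far the most variable of the 6 genes. It spanned 3.73 over the 48 mice, between 6.40 in Ctrl mouse 46 and 10.13 in CIE mouse 59, both of 7 d, and its SD within groups was 0.72. At 8 h it was 7.99, 9.00 and 9.37 in CIE mice and 8.04, 8.83 and 9.31 in Ctrl mice. At 7 d it was 7.71, 8.66 and 10.13 in CIE mice and 6.40, 8.19 and 9.29 in Ctrl mice. The groups overlapped at both times, with CIE mice to the high side at 7 d. The difference was 0.12 at 0 h (SE 0.40, adjusted p = 0.912), 0.24 at 8 h (0.826), 0.08 at 72 h (0.975) and 0.66 at 7 d (95% interval -0.14 to 1.46, adjusted p = 0.364). Without mice 18 and 22 the 7 d difference was 0.98 (adjusted p = 0.271), and without Ctrl mouse 46 it was 0.32 (adjusted p = 0.697).

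**Figure D3:**
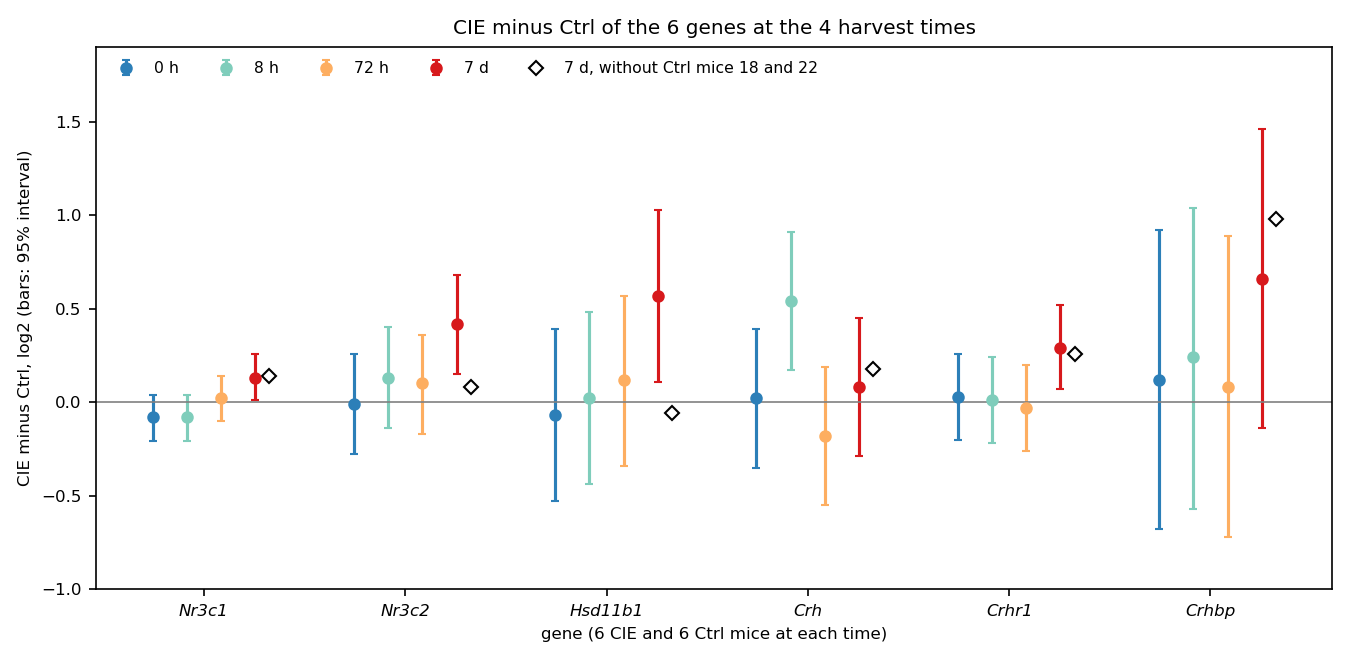
CIE minus Ctrl difference in log2 level (vertical axis, bars are 95% intervals) of each gene (horizontal axis) at 0 h, 8 h, 72 h and 7 d from left to right, with the 7 d value without Ctrl mice 18 and 22 as an open diamond. Without both mice the 7 d difference went to 0.08 for Nr3c2 and to -0.06 for Hsd11b1, and stayed at 0.26 for Crhr1.

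Whether the CIE effect itself differed between time points was tested for each of the 6 pairs of times. None of the 36 differences was called, and 4 had an unadjusted p under 0.05. In each pair of times 3789 to 5323 of 45037 probe sets had such a p. The smallest adjusted p were 0.302 for Nr3c1, whose effect at 7 d exceeded that at 8 h by 0.22, and 0.345 for Crh, whose effect at 72 h lay 0.72 below that at 8 h (difference -0.72, SE 0.26, 95% interval -1.24 to -0.19). The Crh effect at 8 h exceeded that at 0 h by 0.52 (95% interval -0.01 to 1.04, adjusted p = 0.431), so the larger value at 8 h is not shown to differ from the one at 0 h. Calls were rare in all these comparisons: 0.0333%, 0.0355% and 0.06% of probe sets for 8 h, 72 h and 7 d against 0 h, 0.0222% and 0.0533% for 72 h and 7 d against 8 h, and 0% for 7 d against 72 h, where 3789 probe sets had an unadjusted p under 0.05.

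Ordered by mean level, Crh ran CIE 8 h (7.38 ± 0.14), CIE 7 d (7.34 ± 0.50), Ctrl 7 d (7.26 ± 0.46), Ctrl 72 h (7.01 ± 0.24), Ctrl 8 h (6.84 ± 0.46), CIE 72 h (6.83 ± 0.12), CIE 0 h (6.62 ± 0.13) and Ctrl 0 h (6.60 ± 0.31; SD, n = 6 each). Of its 7 steps between neighbours, 6 were within the larger SD of the pair, and the exception was CIE 72 h over CIE 0 h, a step of 0.21. The groups of 0 h were thus the lowest for Crh in both treatments. Crhbp was highest in CIE 8 h (8.93 ± 0.51), then CIE 7 d (8.78 ± 0.79), Ctrl 8 h (8.69 ± 0.53), CIE 72 h (8.33 ± 0.40), Ctrl 72 h (8.24 ± 0.77), Ctrl 7 d (8.12 ± 1.08), CIE 0 h (8.07 ± 0.63) and Ctrl 0 h (7.95 ± 0.81). Crhr1 was highest in CIE 7 d (7.64 ± 0.18), followed by Ctrl 72 h (7.57 ± 0.20), CIE 8 h (7.56 ± 0.17), Ctrl 8 h (7.55 ± 0.22), CIE 72 h (7.54 ± 0.14), CIE 0 h (7.49 ± 0.19), Ctrl 0 h (7.46 ± 0.22) and Ctrl 7 d (7.35 ± 0.27). For both genes all 7 steps were within the SD.

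The receptors and the enzyme had equally shallow orders, again with 7 of 7 steps within the larger SD. Nr3c1 ran Ctrl 8 h (10.73 ± 0.09), CIE 7 d (10.73 ± 0.07), CIE 8 h (10.65 ± 0.12), CIE 72 h (10.63 ± 0.07), Ctrl 72 h (10.61 ± 0.05), Ctrl 0 h (10.60 ± 0.17), Ctrl 7 d (10.59 ± 0.11) and CIE 0 h (10.52 ± 0.09). Nr3c2 ran CIE 7 d (11.45 ± 0.11), CIE 72 h (11.43 ± 0.07), Ctrl 72 h (11.33 ± 0.13), Ctrl 0 h (11.31 ± 0.08), CIE 0 h (11.29 ± 0.14), CIE 8 h (11.27 ± 0.11), Ctrl 8 h (11.14 ± 0.30) and Ctrl 7 d (11.03 ± 0.53). The Ctrl groups at its end are those that hold mice 66, 18 and 22. Hsd11b1 ran CIE 72 h (10.87 ± 0.17), Ctrl 72 h (10.76 ± 0.25), Ctrl 0 h (10.71 ± 0.14), CIE 8 h (10.70 ± 0.33), CIE 7 d (10.69 ± 0.13), Ctrl 8 h (10.68 ± 0.26), CIE 0 h (10.64 ± 0.24) and Ctrl 7 d (10.12 ± 0.99). Between the highest and the lowest group lay 0.98 for Crhbp, 0.79 for Crh, 0.75 for Hsd11b1, 0.42 for Nr3c2, 0.29 for Crhr1 and 0.21 for Nr3c1. Without mice 18 and 22 this span was 0.23 for Hsd11b1, 0.30 for Nr3c2 and 1.13 for Crhbp.

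Levels of the genes moved with cell type and region markers from mouse to mouse, which was described over the 48 arrays and again over the 46 without mice 18 and 22. The points share groups, hybridization sets and dissections, and the part of tissue composition in the results above was not tested. Crhbp followed Sst, the somatostatin gene of a class of interneurons (r = 0.84 over 48 arrays and 0.88 over 46), and the mean of 14 interneuron markers (0.81 and 0.81), though single markers ran between -0.19 (Gad1) and 0.88 over 46 arrays, with 11 of 14 above 0. The principal cell list was split, with 3 of its 10 genes above 0 and 7 below over 46 arrays. Crhbp ran against the granule cell genes Dsp (-0.57 and -0.79) and Prox1 (-0.76 and -0.80). It followed Wfs1 (0.77 and 0.80), Neurod6 (0.65 and 0.84) and Spink8 (0.63 and 0.79), 3 genes of pyramidal cells, nearly as closely as Sst. Those were the only 3 above 0, and Grik4 (-0.56 and -0.57) and Neurod2 (-0.48 and -0.57) were among the 7 below. CIE mouse 59, with the highest Crhbp, had the lowest Dsp outside mice 18 and 22 (7.79) and an Sst of 11.81, and Ctrl mouse 46, with the lowest Crhbp, had the highest Dsp (12.34) and an Sst of 9.93. The interneuron markers were called in 0 of 14 genes at 8 h and 7 d, where 2.15% and 1.34% of all probe sets were called. Their mean was 9.98 to 10.22 in CIE mice of 7 d and 9.59 to 10.35 in Ctrl mice of 7 d. Single marker genes were picked here after their values were seen.

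**Figure D4:**
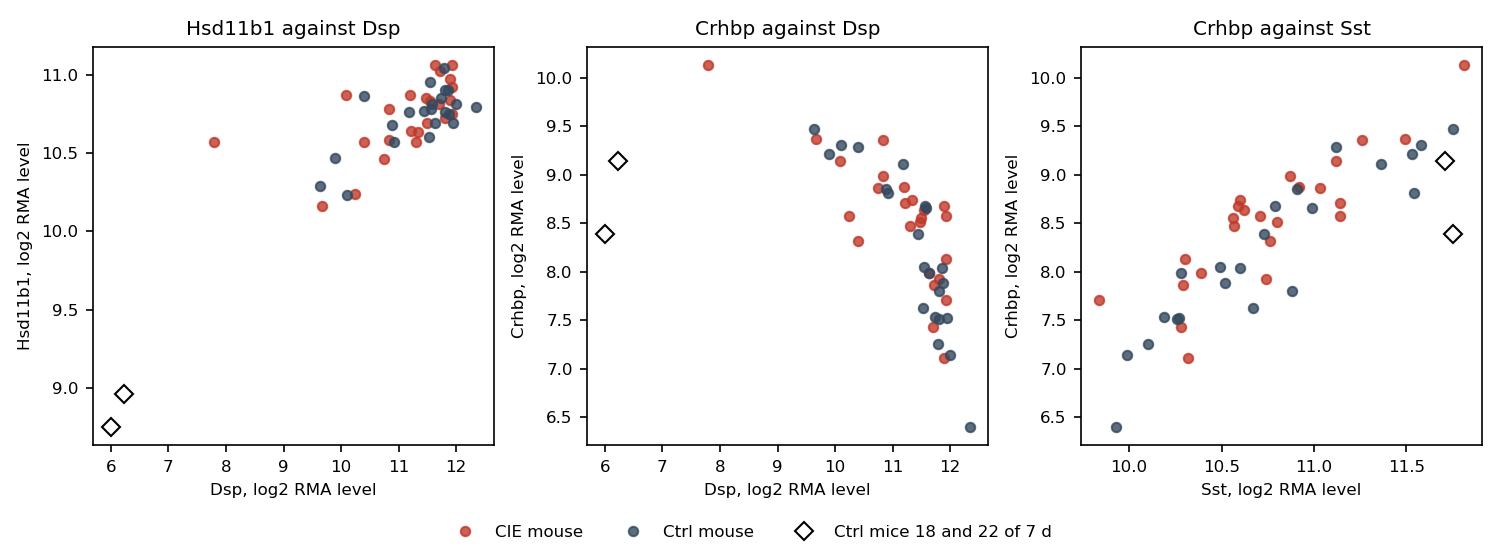
Log2 RMA level of Hsd11b1 against Dsp, of Crhbp against Dsp and of Crhbp against Sst, 1 point per mouse, CIE in red and Ctrl in blue, with Ctrl mice 18 and 22 of 7 d as open diamonds. Crhbp is higher where Sst is higher (r = 0.84) and lower where Dsp is higher, in both treatments, and both diamonds lie at low Dsp and low Hsd11b1.

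Hsd11b1 showed the reverse relation to Crhbp, with Dsp at 0.87 over 48 arrays and 0.64 over 46, and with the mean of the hippocampal principal cell markers at 0.85 and 0.38. Over 46 arrays 7 of the 10 markers lay above 0 for Hsd11b1, while Wfs1 (-0.49), Neurod6 (-0.43) and Spink8 (-0.41) lay below. Its -0.77 with striatal markers rested on mice 18 and 22, and was -0.02 without them. Nr3c2 likewise had 0.78 with the hippocampal markers over 48 arrays and 0.36 over 46. Crhr1 followed the mean of the interneuron markers at 0.61 and 0.73, though Gad1 had -0.19 over 46 arrays. Over the same arrays Crhr1 also followed Wfs1 (0.68), Neurod6 (0.56) and Spink8 (0.57). It ran against Prox1 (-0.65), Zbtb20 (-0.54), Dsp (-0.51) and Calb1 (-0.32) of the same list. Crh followed Lamp5, a gene of neocortical and interneuron types, at 0.61 and 0.66. The mean of the neocortical and amygdalar list that holds Lamp5 had only 0.28 and 0.26 with Crh. At 7 d the hippocampal list had 0 of 10 genes called, where 1.34% of all probe sets were called. Its mean was 9.95 to 10.68 in CIE mice and 9.08 to 10.61 in Ctrl mice. The striatal list had 1 of 5 measured genes called lower, as were 32 of 18193 genes. Its mean was 7.72 to 8.12 in CIE mice and 8.03 to 9.85 in Ctrl mice. The lowest hippocampal means (9.08 and 9.12) and the highest striatal means (9.52 and 9.85) were those of Ctrl mice 18 and 22. At 8 h, where Crh differed most, the neocortical and amygdalar markers had a mean of 8.24 to 8.59 in CIE mice and 8.26 to 9.09 in Ctrl mice, the highest being Ctrl mouse 66, the one with the most Crh at that time.

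Among themselves, the genes fell into pairs that varied together and pairs that did not. Crhr1 and Crhbp correlated at 0.64 over 48 arrays and 0.69 over 46, and both followed Nr3c1 (0.56 and 0.60 for Crhr1, 0.55 and 0.57 for Crhbp). The correlation of Nr3c2 with Hsd11b1, 0.69 over 48 arrays, was 0.08 without mice 18 and 22. Hsd11b1 and Crhbp ran in opposite directions, at -0.31 and -0.47.

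Across the 18193 genes, the patterns most like each member were also taken from the 48 arrays, with the value over 46 arrays second. For Crhbp these were Far2 (0.93 and 0.93), Iah1 (0.91 and 0.93) and Fbxl2 (0.91 and 0.91), and the most opposite was Dock10 (-0.90 and -0.91). For Crhr1 they were Ltk (0.79 and 0.78), Map3k21 (0.79 and 0.80) and Ephb3 (0.78 and 0.77), with Sox11 opposite (-0.76 and -0.77). Crh had weaker likeness to any gene, with Rasgef1b (0.64 and 0.69), Trak2 (0.63 and 0.58) and Ctnnal1 (0.62 and 0.58) first and Sobp opposite (-0.60 and -0.55). Nr3c1 was nearest to Tnfaip3 (0.69 and 0.70), Lin54 (0.68 and 0.69) and Galnt7 (0.68 and 0.67), with Dtd1 opposite (-0.75 and -0.76). For Hsd11b1 and Nr3c2 the values leaned on mice 18 and 22: Lct (0.91 and 0.63), Pcdh20 (0.89 and 0.52) and Thrsp (0.89 and 0.65) for Hsd11b1, with 4930426D05Rik opposite (-0.88 and -0.54), and Wipf3 (0.90 and 0.77), Arhgef25 (0.90 and 0.74) and Stim2 (0.89 and 0.78) for Nr3c2, with Sh3gl3 opposite (-0.86 and -0.75).

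The last question was whether genes around the receptors and the Crh system changed where the 6 genes themselves did not. Of 64 further genes listed by role, 58 had a probe set with a single symbol and the other 6 were not analysed here. Genes known to respond to the glucocorticoid receptor were higher in CIE mice at the first 2 times, with 7 of 14 called higher at 0 h (against 1.25% of all genes) and 6 of 14 at 8 h (against 1.6%), and 0 called lower. The 14 were chosen with earlier results of these data known, so these counts describe the list and are not independent evidence. At 72 h and 7 d limma called 0 of 14, also without Ctrl mice 18 and 22. An unadjusted p under 0.05 was found for 1 and 5 of the 14, and for 4217 and 9165 of 45037 probe sets. The median difference of the 14 was 0.31 at 0 h and 0.24 at 8 h, then -0.04 at 72 h and 0.02 at 7 d. That of all probe sets was between 0.00 and 0.02. With 1 probe set for each of 18193 genes it was 0.041, 0.006, 0.013 and 0.028 at the 4 times. With the sets as a block, 4 were called at 0 h and 5 at 8 h. Ctrl mouse 2 of 0 h, which fell in no set, was a block of its own, so the block fit in effect left it out. Without Ctrl mouse 2, CIE mouse 19 or CIE mouse 57 the 0 h count was 4. The block and the fit without Ctrl mouse 2 are thus not separate checks at 0 h.

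Plin4, the perilipin gene of a coat around lipid droplets, led this list. It was 6.82, 7.17 and 7.76 in CIE mice and 5.61, 6.12 and 6.22 in Ctrl mice at 0 h, without overlap, as held for 1.41% of all probe sets at that time. It rose by 1.25 or 2.37-fold at 0 h (SE 0.14, adjusted p = 2.04e-07) and by 1.13 or 2.18-fold at 8 h (adjusted p = 5.97e-07), and had -0.04 and -0.14 at 72 h and 7 d. Tsc22d3, the glucocorticoid-induced leucine zipper gene, was 10.95, 11.13 and 11.30 in CIE mice and 10.17, 10.28 and 10.55 in Ctrl mice at 8 h, again without overlap, which held for 3.25% of all probe sets. It rose by 0.62 at 0 h (SE 0.10, adjusted p = 0.000255) and 0.78 at 8 h (adjusted p = 2.49e-06).

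Sgk1, a kinase gene that also responds to the mineralocorticoid receptor, was 11.17, 11.63 and 11.93 in CIE mice and 10.84, 11.07 and 11.23 in Ctrl mice at 8 h. It rose by 0.55 at 8 h (adjusted p = 0.00016), and had 0.38 at 0 h, just short of a call (SE 0.09, adjusted p = 0.0101), with no overlap between groups there, as held for 1.41% of all probe sets. Sult1a1, a sulfotransferase gene, rose by 0.86 at 0 h (SE 0.14, adjusted p = 0.000181) and 0.82 at 8 h (adjusted p = 0.000141). Cdkn1a, the gene of a cell cycle inhibitor, rose by 0.70 at 0 h (SE 0.13, adjusted p = 0.000838) and 0.57 at 8 h (adjusted p = 0.00353, and 0.0112 to 0.017 without Ctrl mouse 8, Ctrl mouse 42 or CIE mouse 21). Smaller rises at 0 h were those of the metallothionein gene Mt2 (0.28, adjusted p = 0.00436), the clock gene Per1 (0.35, adjusted p = 0.00548) and Zfp36, which encodes an mRNA decay factor (0.44, adjusted p = 0.00709). All 3 were lost with the sets as a block (0.0354, 0.0445 and 0.0553), and without any 1 of 6 mice for Mt2 and Per1 or of 7 for Zfp36, Ctrl mouse 2 and CIE mice 19 and 57 among them each time. Mt2 also rose by 0.25 at 8 h (adjusted p = 0.00978), which 33 single mice and the block (0.0222) each ended.

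The same list was lower again in CIE mice at later times. Against CIE mice of 0 h, 5 of 14 were called lower at 72 h (against 0.649% of all genes) and 6 of 14 at 7 d (against 0.616%). These comparisons share the CIE mice of 0 h, which also gave the rise at 0 h. The list was chosen with earlier results of these data known, so such falls are not independent evidence. With the sets as a block 4 were called at each time. Plin4 had -1.22 (adjusted p = 1.72e-07) and -1.17 (adjusted p = 1.67e-07). In Ctrl mice against Ctrl mice of 0 h, 0 of 14 were called at 8 h and 72 h and 1 at 7 d. Of all probe sets, 1.12%, 0.833% and 0.211% were called at these times.

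**Figure D5:**
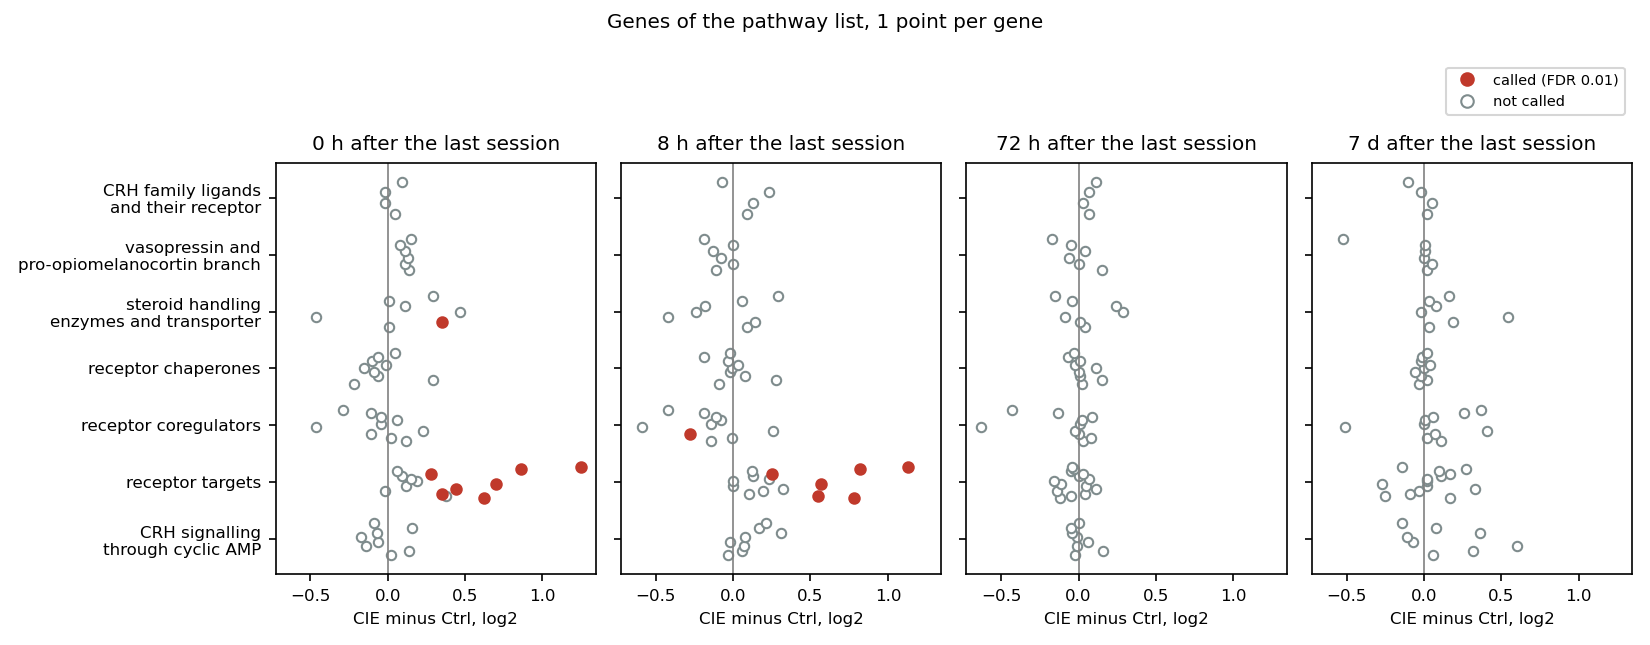
CIE minus Ctrl difference in log2 level (horizontal axis) of each measured gene of the list, 1 point per gene, by role (vertical axis) and time point (panels), with called genes filled. Filled points cluster in the receptor targets at 0 h (7 of 14) and 8 h (6 of 14), and none is filled at 72 h or 7 d.

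Among the other roles, 1 of 7 steroid handling genes was called higher at 0 h (against 1.25% of all genes) and 1 of 10 receptor coregulators was called at 8 h. With this many genes and times, single calls are not far from such shares. H6pd, whose enzyme supplies the cofactor for the reductase encoded by Hsd11b1, was 6.65, 6.85 and 6.93 in CIE mice and 6.20, 6.48 and 6.61 in Ctrl mice at 0 h. The groups did not overlap, as held for 1.41% of all probe sets at that time. H6pd rose by 0.35 or 1.28-fold (SE 0.08, adjusted p = 0.00615), a call lost with the sets as a block (0.0266) and without any 1 of 8 mice (Ctrl mice 2, 20, 56 and 64 and CIE mice 19, 43, 57 and 72). Ncoa3, a coactivator of nuclear receptors, was the 1 gene called lower, against 0.693% of all genes at 8 h. It was 8.71, 8.79 and 8.98 in CIE mice and 8.98, 9.02 and 9.28 in Ctrl mice, and the difference was -0.28 or 0.82-fold (SE 0.06, adjusted p = 0.00273, and 0.0164 and 0.0107 without Ctrl mouse 79 and CIE mouse 21). None of the 4 relatives of Crh and Crhr1 was called at any time, the smallest p being that of the ligand gene Ucn3 at 8 h (0.23, adjusted p = 0.0614). None of 6 genes of the vasopressin and pro-opiomelanocortin branch was called either (Oxtr, the oxytocin receptor gene, -0.52 at 7 d, adjusted p = 0.169), nor any of 9 receptor chaperones (Dnajb1, -0.19 at 8 h, adjusted p = 0.0329) or of 8 genes of cyclic AMP signalling downstream of Crhr1 (Crem, a cyclic AMP response gene, 0.36 at 7 d, adjusted p = 0.0335).

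Promoter windows, 250 bases before to 50 after a start site (RefSeq, GRCm38.p6), were searched for the palindromic glucocorticoid response element, the arms AGAACA and TGTTCT with any 3 bases between them, and for either arm by itself, on both strands. Windows were at hand for 4 of the 6 genes (Nr3c2, Hsd11b1, Crhr1 and Crhbp) and for all 14 receptor targets, which had 24 windows. The full element stood in 3 of 32851 windows (0.00913%), 1 of them a window of Sgk1. An arm stood in 19% of all windows, in 0 of the 4 windows of the receptor and Crh genes and in 5 of the 24 target windows, which belonged to Sgk1, Tsc22d3 and Sult1a1. The cyclic AMP response element TGACGTCA stood in 1.79% of all windows, in 0 of the 4 and in 2 of the 24. One window of each of the 3 genes is shown because it holds the element (Sgk1) or an arm (Tsc22d3 and Sult1a1), given in capitals. All 3 genes rose in CIE mice at 8 h, but so did Cdkn1a and Mt2, whose windows held neither. They are chr10:21993640-21993939 on the plus strand for Sgk1, chrX:140600473-140600772 on the minus strand for Tsc22d3 and chr7:126676369-126676668 on the minus strand for Sult1a1, each written 5′ to 3′.
Sgk1: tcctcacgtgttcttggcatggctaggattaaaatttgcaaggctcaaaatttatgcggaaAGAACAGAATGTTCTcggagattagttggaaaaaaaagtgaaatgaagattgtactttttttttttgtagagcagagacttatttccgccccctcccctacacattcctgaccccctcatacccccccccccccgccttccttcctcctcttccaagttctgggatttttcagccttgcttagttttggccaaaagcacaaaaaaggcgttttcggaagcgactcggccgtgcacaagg
Tsc22d3: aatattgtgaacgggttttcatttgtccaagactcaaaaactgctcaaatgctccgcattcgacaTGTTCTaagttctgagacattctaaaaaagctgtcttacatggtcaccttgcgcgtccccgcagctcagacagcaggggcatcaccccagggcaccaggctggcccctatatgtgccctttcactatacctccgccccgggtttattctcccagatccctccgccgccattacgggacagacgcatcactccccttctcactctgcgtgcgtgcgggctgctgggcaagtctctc
Sult1a1: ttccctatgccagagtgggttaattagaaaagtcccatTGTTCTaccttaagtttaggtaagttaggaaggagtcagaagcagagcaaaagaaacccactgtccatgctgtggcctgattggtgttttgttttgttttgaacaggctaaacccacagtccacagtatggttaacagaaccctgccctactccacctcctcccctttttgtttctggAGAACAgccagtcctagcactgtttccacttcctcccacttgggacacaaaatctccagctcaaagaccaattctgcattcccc
The element of Sgk1 begins 189 bases before its start site, the arm of Tsc22d3 185 bases before, and those of Sult1a1 212 and 34 bases before. A match of letters is a description of the window and not a binding site, and Plin4, with the largest rise of the list, had neither the element nor an arm in its window.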

How the data were processed

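The deposited values were log2 expression values that the authors made with RMA. Per the study's methods, background correction and a first quantile normalization were run within each hybridization batch, a second one over all arrays, and ComBat then removed the batch. The authors' tool versions were not found in the labels or methods. The log2 values were used as deposited, without a filter. No probe carried a detection flag, and the number of arrays limits precision. Of 45037 probe sets, 34945 had 1 symbol in the platform annotation, 932 several and 9160 none.

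One model with a mean for each group was fitted to all 48 arrays with lmFit and eBayes of limma 3.58.1 in R 4.3.3. P-values were two-sided, with Benjamini-Hochberg adjustment over the whole array in each comparison. Named by rule were the 6 genes, the called genes of the pathway list (at most 12) with the smallest p of roles without a call, and for each of the 6 genes the 3 most and the 1 least correlated genes. The 6 genes, the pathway list and the 14 marker lists were chosen with earlier results of these data known, and the receptor targets are not independent evidence of their direction. Each array was a separate mouse. Arrays sharing at least 5 values equal within 1e-08 were joined into 6 hybridization sets holding 47 arrays. Ctrl mouse 2 of 0 h fell in none, so 1 set lacked that group. In the block fit this mouse was a block of its own, so block results that use Ctrl mice of 0 h in effect leave it out. The fit was tested on simulated data. Promoter windows were RefSeq sequences of GRCm38.p6.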

Additional observations from a re-analysis of the deposited data

Results flagged for a closer look

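Among the 48 sets of 6 values of the 6 genes, 1 held a mouse set well apart from its group by Dixon's ratio, where chance gives about 1 in 20 such groups. Crhbp in CIE mouse 23 of 8 h was 7.99, and the nearest CIE mouse of that time had 8.86 (ratio 0.63, critical value 0.625).

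The CIE effect of 4 of the 14 receptor targets differed between time points in limma's test of the difference. In the pairs of times named here 1 or 2 of 14 were called, against 0.0222% to 0.06% of all probe sets. The 14 were chosen with earlier results of these data known, so these calls are not independent evidence. Plin4 lost its rise: the effect at 72 h minus that at 0 h was -1.29 (adjusted p = 0.00137), at 7 d minus 0 h -1.38 (8.88e-05), at 72 h minus 8 h -1.17 (0.0057) and at 7 d minus 8 h -1.26 (0.000317). For Tsc22d3 the effect at 72 h minus that at 8 h was -0.90 (0.0057). For Sgk1 the effect at 7 d minus that at 8 h was -0.80 (0.00131). For Cdkn1a the effect at 7 d minus that at 0 h was -0.97 (0.00502). When the hybridization sets were fitted as a block, the calls of 72 h minus 8 h for Plin4 and Tsc22d3 (0.0188 each) and of Cdkn1a (0.0226) were lost.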

How the results depend on the processing

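No paired analysis was possible because each mouse carries its own replicate number and the groups share none. Alternatives were a filter on dim probe sets, another quantile normalization, median centring, the hybridization sets as a block, an intensity trend, array weights, only the 12 arrays of a time, each mouse left out in turn (48 fits) and, chosen after seeing the data, leaving out Ctrl mice 18 and 22 of 7 d together, single mice in the comparisons with CIE mice of 0 h, and the same settings for the receptor targets.

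The 24 differences of the 6 genes stayed uncalled in 188 of 192 such values with the same direction, and the other 4 changed sign. Crh at 0 h was -0.03 with the block and -0.01 with array weights, Crhr1 at 72 h was 0.00 with array weights, and Hsd11b1 at 7 d was -0.06 without mice 18 and 22. Other Nr3c1 probe sets gave 0.08 (1421867_at) and 0.07 (1431378_at) at 0 h, 0.09 (1421867_at), 0.04 (1421866_at), 0.04 (1431378_at) and a called -0.32 (1457635_s_at) at 8 h, -0.05 (1457635_s_at), -0.11 (1421866_at) and -0.09 (1453860_s_at) at 72 h, and a called 0.25 (1421867_at) and -0.37 (1453860_s_at) at 7 d. With 12 arrays the calls of 1457635_s_at at 8 h (adjusted p = 0.0436) and 1421867_at at 7 d (0.0451) were lost, and that of 1457635_s_at also with median centring (0.0102). The further Crhr1 probe set gave -0.08 at 0 h and 0.09 at 72 h. The cause was not tested.

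Crh in CIE mice at 8 h against 0 h kept its 0.77 with the block but not its call, so 0 of the 6 genes were called there, and at 7 d 1 was called (Crh) with array weights and 1 without mice 18 and 22. The number of probe sets called at 0 h (865) was 182 with the block, which in effect also left out Ctrl mouse 2. It was 260 with array weights and 42 with 12 arrays. At 8 h (967) it was 3140 with array weights and 499 with 12 arrays. At 72 h (3) it was 91 with array weights and 0 with 12 arrays. At 7 d (604) it was 250 with the block, 1 with 12 arrays and 11 without mice 18 and 22. The receptor targets called at 0 h (7) were 4 with the block and 1 with 12 arrays. Other comparisons moved too, with 2045 to 4931 calls for the F (3453), 839 to 3314 for CIE mice at 8 h against 0 h (1290) and 19 to 649 for the same Ctrl comparison (505). Against 0 h they were 286 to 1128 at 72 h (510) and 262 to 725 at 7 d (357) in CIE mice, and 42 to 462 (375) and 24 to 95 (95) in Ctrl mice. The cause was not tested.

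Leaving out 1 mouse gave differences at 0 h of -0.05 to 0.11 for Crh, -0.04 to 0.37 for Crhbp, -0.03 to 0.09 for Crhr1, -0.11 to 0.01 for Hsd11b1 and -0.04 to 0.04 for Nr3c2. At 8 h these were -0.04 to 0.09 for Crhr1, -0.07 to 0.13 for Hsd11b1 and 0.11 to 0.43 for Crhbp, at 72 h -0.11 to 0.33 for Crhbp and -0.07 to 0.04 for Crhr1, and at 7 d -0.06 to 0.25 for Crh, 0.32 to 0.89 for Crhbp (lowest without Ctrl mouse 46), 0.30 to 0.72 for Hsd11b1 (lowest without Ctrl mouse 22) and 0.28 to 0.52 for Nr3c2. Of the 6 genes, 0 to 1 were called at 7 d. Crh in CIE mice was 0.72 to 0.80 at 8 h and 0.58 to 0.84 at 7 d against 0 h. Nr3c1 probe set 1457635_s_at at 8 h was -0.37 to -0.29. Its call was lost without Ctrl mouse 6, 24, 32, 42, 44, 52, 64, 66, 70 or 79 or CIE mouse 3, 9, 11, 15, 19, 21, 23, 25, 27, 33, 35, 37, 43, 67 or 71. The receptor targets called at 0 h were 4 to 8. Probe sets called were 261 to 1508 at 0 h (lowest without CIE mouse 57), 586 to 1392 at 8 h (without Ctrl mouse 79), 0 to 16 at 72 h and 89 to 1482 at 7 d (without Ctrl mouse 22).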

Other observations

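Genes of the pathway list outside the naming rule, chosen after their values were seen, also changed with time in CIE mice relative to the same CIE mice of 0 h. Of the 58 measured genes, 1 was called higher and 1 lower at 8 h, where 2.86% of all probe sets were called. At 72 h 1 was called higher and 5 lower (1.13% of all probe sets), and at 7 d 1 higher and 6 lower (0.793%). Crem, a transcription factor gene of the cyclic AMP response, rose by 0.62 at 8 h (limma, adjusted p = 0.000144). Its CIE minus Ctrl difference at 8 h was 0.31 and not called (adjusted p = 0.075), and a link to Crh was not tested. Akr1c14, which encodes a hydroxysteroid dehydrogenase, rose by 1.01 at 7 d (0.000245), and Cyp11a1, the gene of the side-chain cleavage enzyme that starts steroid synthesis, fell by 0.93 at 8 h (0.00152). These 3 were also called with the hybridization sets as a block, and the chromatin remodelling gene Smarca4, 0.21 higher at 72 h (0.00559), was not. In Ctrl mice the metallothionein gene Mt1 was 0.27 lower at 7 d than at 0 h (difference -0.27, adjusted p = 0.00101). It was the 1 call among the 58 genes there, where 0.211% of all probe sets were called.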
